A study of Canis lupus familiaris with 36 samples.

Results

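The genes that load and display peptides on MHC class II molecules were examined in canine lymphoma tissue, together with CIITA, the regulator that switches them on. The set holds 10 genes, namely CIITA, CD74, DLA-DRA, DLA-DQA1, DLA-DMA, DLA-DMB, DLA-DOA, RFX5, CTSS and IFI30, out of 15115 genes with a probe set on the array. Members were taken by gene symbol from the annotation of the array platform. The choice of genes uses no measured value, but the set was proposed with earlier results of these data known. The probe set of each gene was the one with the highest mean over all arrays. All 10 had a probe set, and all 10 were bright enough to be tested.

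MHC class II molecules display peptides from endosomes to CD4 T cells. CIITA does not bind DNA itself. It is recruited to the promoters of class II genes by a complex that includes RFX5, and it is their master coactivator. The alpha and beta chains assemble with the invariant chain CD74, which blocks the groove until proteases such as cathepsin S (CTSS) degrade it in endosomes. The DM heterodimer (DLA-DMA and DLA-DMB) then exchanges the remaining fragment for peptide, and the DO molecule, to which DLA-DOA contributes, restrains DM. IFI30 reduces disulfide bonds of antigens in the same compartment. B cells, dendritic cells and macrophages carry class II constitutively. In dogs, unlike mice, most mature T cells carry it as well, so both lineages of lymphoma can hold it. Low surface class II on canine B-cell lymphoma has been linked to shorter survival.

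Tumour tissue from 35 dogs had been dissociated mechanically, filtered and profiled on 36 arrays. The B phenotype comprised 2 dogs labelled BL (age 2 to 5 at diagnosis, high grade, 1 Golden Retriever), 10 with diffuse large B-cell lymphoma (DLBCL; age 4 to 14, high grade, 6 Golden Retrievers) and 5 with marginal zone lymphoma (MZL; age 4 to 10, low grade, 4 Golden Retrievers). The T phenotype comprised 4 dogs labelled LBT (age 3 to 10, high grade, 3 Golden Retrievers), 4 with peripheral T-cell lymphoma (PTCL; age 6 to 14, 3 of high and 1 of intermediate grade, 1 Golden Retriever) and 9 with T-zone lymphoma (TZL; age 7 to 11, low grade, 8 Golden Retrievers). Females and males numbered 1 and 1 in BL, 6 and 4 in DLBCL, and 4 and 1 in MZL. For the T phenotype the counts were 3 females with 1 male (LBT), 2 with 2 (PTCL) and 3 with 6 (TZL). Sex was therefore unevenly spread between LBT and TZL. The remaining dogs were Boxers, Rottweilers, Labradors, Mastiffs, a German Shepherd and a Bichon Frise. The labels give ages without a unit and do not spell out BL or LBT. A single dog labelled NBNT was compared with no group. The labels name no treatment and no sorting of cells. Grade and subtype cannot be told apart, and in such bulk tissue neither can fewer cells of a type and less RNA per cell. Each dog is a separate animal, and its replicate number only names it.

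Levels are log2 intensities, in which a step of 1 is a doubling, and a value under 4 was treated as too dim to measure. The number of arrays limits the precision, most of all for BL, LBT and PTCL. A set of 6 arrays differed from the others in its control probe sets for actin (TZL replicates 1, 2 and 7, PTCL replicate 3, and DLBCL replicates 9 and 4), and none of its dogs was LBT, MZL or BL. The actin control's excess of 3' over 5' signal, a sign of RNA degradation, had medians of 0.92 in DLBCL and -0.59 in MZL, and of -0.76 in LBT, 0.47 in PTCL and -0.995 in TZL. The summed intensity of 7 T-cell genes was 21390 to 31250 in LBT, 6469 to 24020 in PTCL and 15620 to 24290 in TZL, against 4076 to 5035 in BL, 3733 to 8150 in DLBCL and 1643 to 6478 in MZL. The phenotypes separated by it except for PTCL replicate 4, which at 6469 lay within the B range.

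The class II genes were lowest in LBT. All 10 members differed among the subtypes (limma moderated F test, adjusted p between 3.67e-06 for DLA-DMB and 0.0396 for RFX5), as did 56.8% of the 7500 genes tested, so a difference among subtypes was common on this array. LBT had the lowest mean in 9 members and BL in RFX5. For CIITA, 1 of the 9, every LBT and BL dog was under the minimum, so LBT and BL cannot be ordered there. MZL had the highest mean in 9 members and BL in CTSS. Of the 50 steps between neighbours in the order of subtype means, 10 exceeded the larger of both SDs and 40 did not. Of those 10 steps, 6 were the drop to LBT from PTCL, the next subtype up, for CD74, DLA-DRA, DLA-DQA1, DLA-DMA, DLA-DMB and CTSS. The others were DLA-DOA and RFX5 between MZL and PTCL, DLA-DOA between DLBCL and BL, and RFX5 between DLBCL and LBT.

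**Figure D1:**
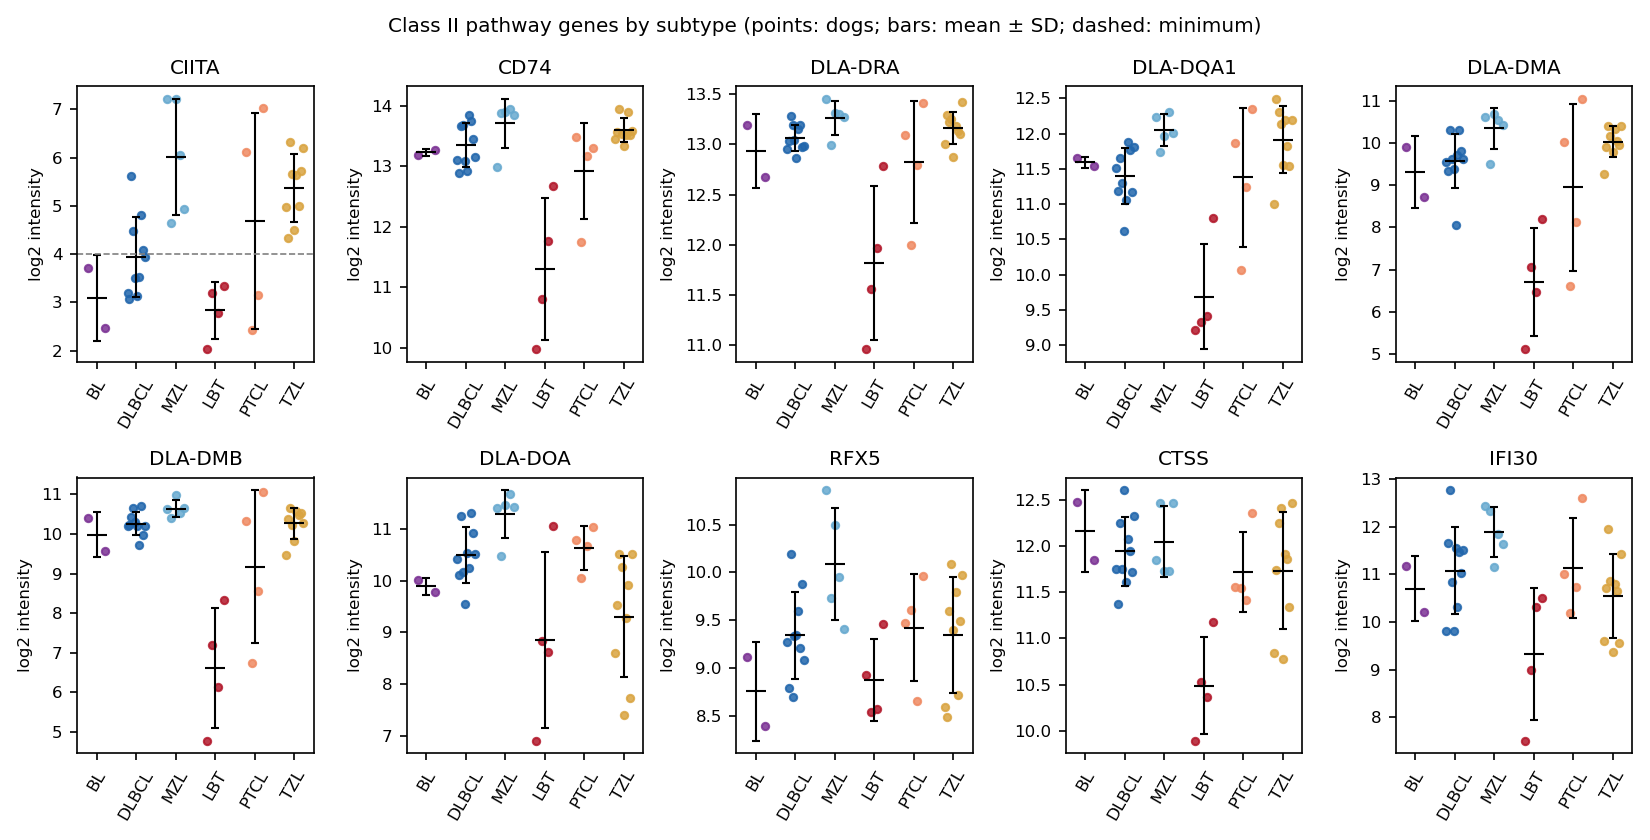
Level of each of the 10 class II genes in every dog (y axis, log2 intensity; x axis, subtype in the order BL, DLBCL, MZL, LBT, PTCL, TZL). Each point is a dog and each bar a subtype mean. LBT has the lowest mean in 9 of the 10 panels, although in CIITA every LBT and BL dog is under the minimum.

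CIITA (gene ID 490008) was dim throughout, and most subtypes included dogs under the minimum. The 4 LBT dogs had 2.03, 3.20, 2.79 and 3.35, and the 4 PTCL dogs had 6.12, 2.44, 3.16 and 7.04, against a lowest value of 4.34, a median of 5.64 and a highest of 6.33 in TZL. Every LBT dog was under the minimum and every TZL dog above it, while PTCL split into 2 dogs above and 2 below. Both BL dogs were under the minimum too, at 3.72 and 2.47, and DLBCL ran from 3.07 through a median of 3.74 to 5.61 with 6 of 10 dogs under it. The 5 MZL dogs had 7.21, 4.64, 7.21, 6.06 and 4.95, all above the minimum. A second CIITA probe set stayed under the minimum in all 34 tested dogs, so CIITA rests on a single probe set that is close to the lower end of what the array can measure.

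**Figure D2:**
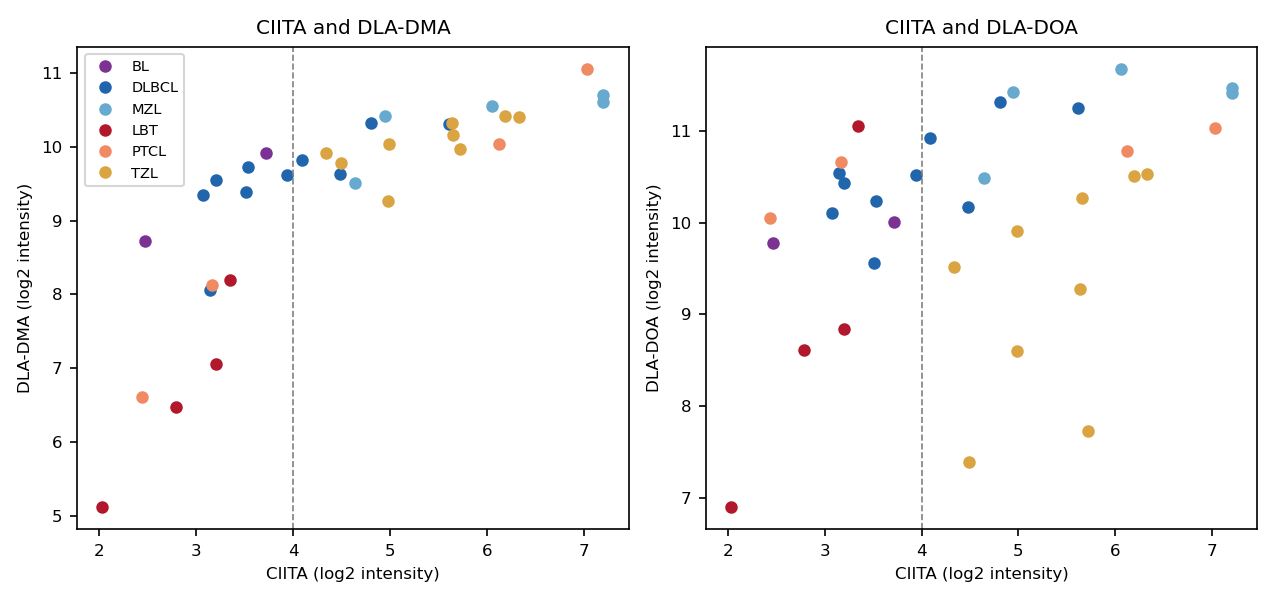
CIITA level of the dogs (x axes, log2 intensity) against DLA-DMA and DLA-DOA (y axes, log2 intensity), coloured by subtype. A dashed line marks the minimum of 4 for CIITA. All 4 LBT and both BL dogs are under this minimum in CIITA and all 9 TZL and 5 MZL dogs above it.

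CD74 (gene ID 479329), the invariant chain, was the brightest member on average. It had 9.98, 10.81, 11.77 and 12.67 in the LBT dogs and 13.47, 11.75, 13.17 and 13.30 in the PTCL dogs, against 13.34, 13.53 and 13.94 as the lowest, median and highest of TZL. Every LBT dog lay below every TZL dog, and LBT replicate 3 and PTCL replicate 2 were level with each other.

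The alpha chains behaved alike. DLA-DRA (gene ID 481731), the alpha chain of the DR molecule, had 10.95, 11.56, 11.96 and 12.79 in LBT and 13.09, 11.99, 12.79 and 13.41 in PTCL, against 12.88, 13.18 and 13.42 as lowest, median and highest in TZL. DLA-DQA1 (gene ID 474861), the alpha chain of the DQ molecule, had 9.22, 9.32, 9.42 and 10.80 in LBT and 11.87, 10.07, 11.25 and 12.34 in PTCL, against 11.01, 12.14 and 12.49 in TZL. For both chains the LBT and TZL dogs did not overlap, although LBT replicate 4 came close to the lowest TZL dog for DLA-DRA.

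The peptide exchange factor showed the widest gap. DLA-DMA (gene ID 481732) had 5.11, 7.06, 6.47 and 8.19 in LBT and 10.04, 6.61, 8.12 and 11.05 in PTCL, against 9.26, 10.04 and 10.41 in TZL. DLA-DMB (gene ID 607827) had 4.78, 7.19, 6.14 and 8.32 in LBT and 10.33, 6.73, 8.57 and 11.07 in PTCL, against 9.47, 10.37 and 10.66 in TZL. Again no LBT dog reached the lowest TZL dog, whereas the PTCL dogs spread from the LBT range to above the TZL range.

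DLA-DOA (gene ID 474869), a chain of the DM inhibitor that is known chiefly from B cells, followed another order. It had 6.90, 8.84, 8.62 and 11.06 in LBT and 10.78, 10.05, 10.66 and 11.04 in PTCL, against 7.40, 9.52 and 10.53 in TZL. LBT and TZL overlapped, and 1 LBT dog was above every TZL dog. In the B phenotype it had 10.01 and 9.78 in BL, 9.56, 10.47 and 11.31 as lowest, median and highest in DLBCL, and 11.41, 10.48, 11.46, 11.67 and 11.42 in MZL.

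The remaining members act outside the class II molecule itself. RFX5 (gene ID 483197), a subunit of the complex that recruits CIITA, had 8.92, 8.54, 8.57 and 9.46 in LBT and 9.47, 9.61, 8.65 and 9.96 in PTCL, against 8.48, 9.49 and 10.08 in TZL. CTSS (gene ID 403400) had 9.89, 10.53, 10.37 and 11.17 in LBT and 11.56, 11.54, 11.42 and 12.36 in PTCL, against 10.78, 11.86 and 12.47 in TZL. IFI30 (gene ID 476669) had 7.51, 9.00, 10.32 and 10.50 in LBT and 11.00, 10.18, 10.74 and 12.61 in PTCL, against 9.37, 10.72 and 11.95 in TZL. CTSS was the only member whose LBT and PTCL dogs did not overlap, whereas for all 3 genes LBT and TZL did.

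LBT against TZL asks whether these T-cell tumours of high and low grade differ in class II. Of the 10 members, 7 fell in LBT (limma, adjusted p under 0.05), against 12.4% of all genes tested that were lower in LBT and 30.1% that were called in either direction. All 10 differences were negative, with a median of -1.79 against 0.046 over all genes. The largest was DLA-DMB, 12.6-fold lower at 6.61 ± 1.51 in LBT (SD, n = 4) and 10.27 ± 0.39 in TZL (SD, n = 9), a log2 difference of -3.66 ± 0.50 (SE, limma adjusted p = 2.66e-06). DLA-DMA fell 10.0-fold, by 3.32 ± 0.53 on the log2 scale (SE, limma adjusted p = 1.89e-05). CD74 was 4.87-fold lower (limma adjusted p = 4.22e-06), and DLA-DQA1 was 4.67-fold lower (limma adjusted p = 5.58e-06).

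The falls in DLA-DRA and CTSS were smaller. DLA-DRA was 2.55-fold lower in LBT than in TZL (limma adjusted p = 3.07e-05) and CTSS 2.37-fold lower (limma adjusted p = 0.00164). CIITA was at least 2.59-fold lower, a bound set by the minimum, since every LBT dog was under it (limma adjusted p = 0.00264). The members not called were IFI30 (-1.22 ± 0.54, SE, limma adjusted p = 0.0869), DLA-DOA (-0.45 ± 0.53, adjusted p = 0.555) and RFX5 (-0.47 ± 0.32, adjusted p = 0.271). RFX5 was called without the 6 arrays that stood apart, which removes 3 TZL dogs (-0.85, adjusted p = 0.0248), and IFI30 was called without LBT replicate 4 (-1.61, adjusted p = 0.0408). For 6 members, CIITA, CD74, DLA-DRA, DLA-DQA1, DLA-DMA and DLA-DMB, every LBT dog lay below every TZL dog, as it did for 5.97% of all genes tested.

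**Figure D3:**
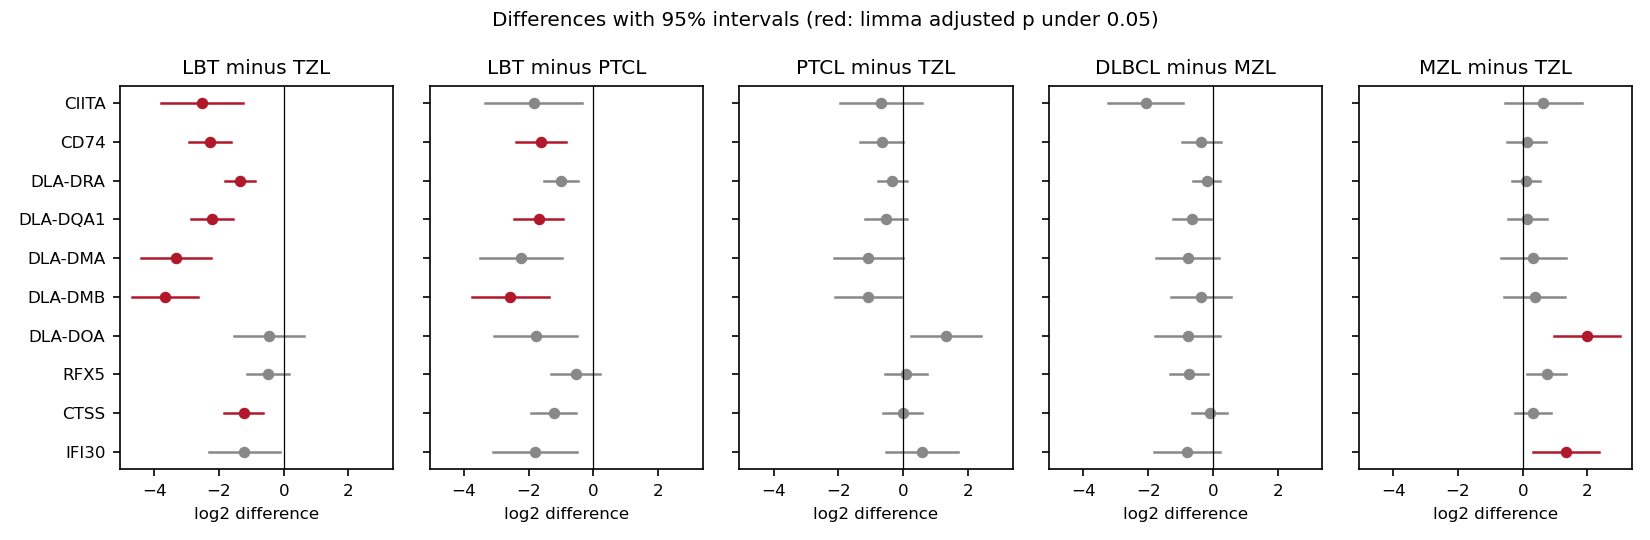
Log2 difference of each member (x axis, with 95% confidence interval) by comparison, the first-named subtype minus the second. In LBT against TZL the intervals of 8 members lie below 0, and in DLBCL against MZL every point lies below 0.

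Other probe sets of the same genes were also lower in LBT. Beside the CIITA probe set under the minimum in every dog, the members had 11 further probe sets, and the mean of each was lower in LBT than in TZL. The third CD74 probe set had the largest gap, at 6.22 in LBT and 10.25 in TZL.

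LBT against PTCL compares the 2 T-cell subtypes that are mostly of high grade. Here 3 members fell in LBT, while 0.213% of all genes were called lower and 0.68% in either direction. These were DLA-DMB (5.92-fold lower, limma adjusted p = 0.0284), DLA-DQA1 (3.23-fold lower, limma adjusted p = 0.0212) and CD74 (3.07-fold lower, limma adjusted p = 0.0321). All 10 differences were negative, with a median of -1.74 against 0.054 over all genes. An unadjusted p under 0.05 was found for 9 of the 10 members and for 934 of the 7500 genes tested. CTSS, which did not overlap between the groups, was 2.34-fold lower without passing (limma adjusted p = 0.0841), and every LBT dog lay below every PTCL dog in 1.89% of genes. The calls were not stable. No member was called with sex, breed and age as covariates, with only LBT and PTCL dogs in the fit, or without LBT replicate 1, PTCL replicate 1 or PTCL replicate 4, and 1 was called without LBT replicate 2 or LBT replicate 3. In contrast, 6 members were called without PTCL replicate 2 and 7 without LBT replicate 4. PTCL also holds only 1 Golden Retriever of 4 dogs, against 3 of 4 in LBT.

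Dogs of LBT and of PTCL differed from each other across the whole set. LBT replicate 4 was the highest LBT dog in all 10 members and LBT replicate 1 the lowest in 9. PTCL replicate 4, the dog of intermediate grade, was the highest PTCL dog in 9 members and PTCL replicate 2 the lowest in 8. Averaged over the 10 members, LBT replicates 1 to 4 lay -1.12, -0.0475, -0.00929 and 1.18 from their subtype's means, and PTCL replicates 1 to 4 lay 0.488, -1.19, -0.432 and 1.13 from theirs. TZL dogs lay -0.648 to 0.592 from their means, DLBCL dogs between -0.321 and 0.695 and MZL dogs between -0.317 and 0.235. Of the 2 BL dogs, replicate 1 was the higher in 9 members, at 0.319 against -0.319 for replicate 2.

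**Figure D4:**
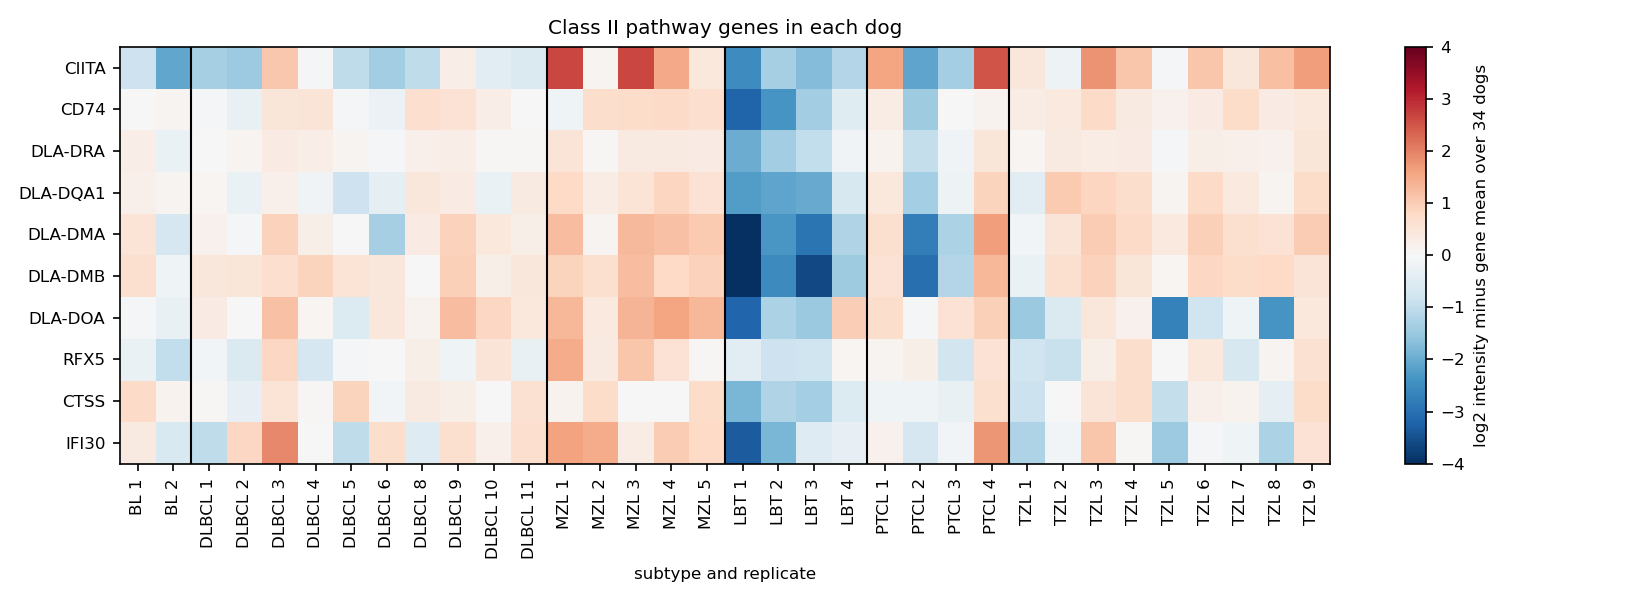
Level of each of the 10 members (rows) in each dog (columns, by subtype), shown by colour as a log2 difference from a mean of that member. LBT replicate 4 is the highest LBT dog in all 10 members and LBT replicate 1 the lowest in 9. PTCL replicate 4 is the highest PTCL dog in 9 members and PTCL replicate 2 the lowest in 8.

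B-cell markers moved with class II among the T-cell tumours. The B-cell list had a probe set for 8 of its 9 genes, and their summed intensity was 46.5, 123, 162 and 2055 in LBT replicates 1 to 4, 2527, 168, 796 and 4429 in PTCL replicates 1 to 4, and 373 to 3782 in TZL, against 5724 to 10700 in BL, 5343 to 7848 in DLBCL and 6799 to 8489 in MZL. Within LBT and within PTCL, the order of the dogs by B-cell sum was their order by mean deviation in class II. In TZL, the 3 dogs with the lowest B-cell sums (replicates 8, 5 and 1, at 373, 443 and 505) also had the 3 lowest deviations, at -0.278, -0.648 and -0.646, and the dog with the highest sum, replicate 3, had the highest deviation, 0.592. The same 3 TZL dogs also had the lowest sums of macrophage and dendritic cell markers (2564, 305 and 1916), and replicate 3 the highest (11350). Within LBT and within PTCL, the order by that second sum was not the order by deviation. B cells themselves express class II, and their part in the LBT result was not tested. LBT replicates 1 to 3 had lower B-cell sums than any TZL dog. LBT replicate 4, whose sum of 2055 lay within the TZL range, was below every TZL dog in CD74 (12.67) but above every TZL dog in DLA-DOA (11.06). The sum adds linear intensities, so bright genes weigh most in it. The highest LBT value was 10.67 for MS4A1, and from 2.65 (PAX5) to 7.16 (CD79B) for the other genes of the list. The TZL dogs with the lowest sums had CD74 levels no lower than 13.34. Of the B-cell list, PAX5 was under the minimum in every dog of all subtypes and BLK in every LBT dog, and 4 of the 7 genes tested fell in LBT against TZL (limma), against 12.4% of all genes.

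The summed intensity of macrophage and dendritic cell markers was also lower in LBT than in PTCL, although only ITGAX of the 14 genes tested was called lower between them (limma adjusted p = 0.0321). Of 18 listed genes, 17 had a probe set, and their summed intensity was 1690 to 4598 in LBT and 5976 to 10540 in PTCL, against 305 to 11350 in TZL. LYZ, the brightest, weighed most in this sum, at log2 levels of 10.58 to 11.96 in LBT, 12.14 to 13.22 in PTCL and 7.71 to 12.91 in TZL. It was not called among the subtypes (limma F test, adjusted p = 0.349). The sums of LBT and PTCL did not overlap, and TZL spanned both. CD68, CD163, MARCO, VSIG4, MRC1, ITGAX, XCR1 and FCER1G were under the minimum in every LBT dog. Of the 17 genes, 2 were so in every PTCL dog (XCR1 and FCER1G), 3 in every TZL, 6 in every DLBCL and 7 in every MZL dog. No LBT dog was under the minimum in CD14, LYZ, AIF1, C1QA, C1QC or TYROBP. CD14 had a mean of 4.81 in LBT, 5.625 in PTCL and 3.25 in TZL. TZL replicate 5, with the lowest sum of 305, lay above every LBT dog in the 6 members that did not overlap, CD74 among them, but within the LBT range in DLA-DOA (7.40), RFX5 (9.39), CTSS (10.78) and IFI30 (9.37). Of the 14 genes tested, 2 fell and 1 rose in LBT against TZL (limma), against 12.4% and 17.8% of all genes, so the count is near the background, and the part of these cells in the class II values was not tested.

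**Figure D5:**
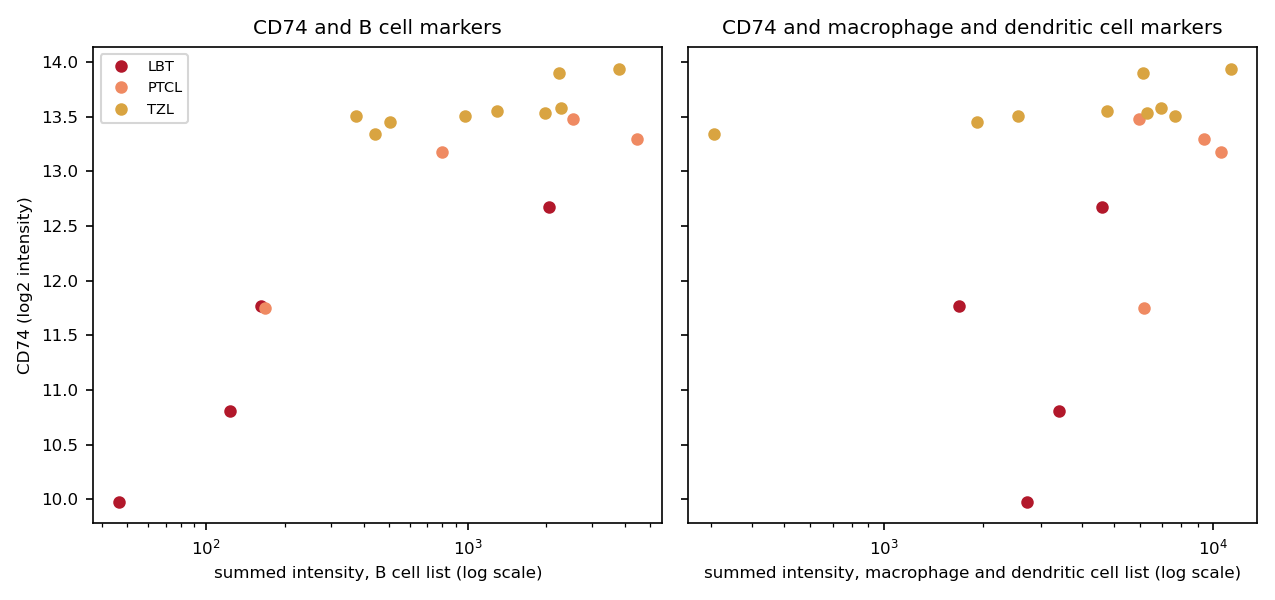
CD74 level (y axis, log2 intensity) against the summed intensity of the B-cell list and of the macrophage and dendritic cell list (x axes, log scale) for every LBT, PTCL and TZL dog, coloured by subtype. All 4 LBT dogs lie below all 9 TZL dogs in CD74, and the B-cell sum of 1 of the 4, replicate 4, lies within the TZL range.

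PTCL against TZL compares high or intermediate with low grade in the T lineage. No member was called, although 13.7% of all genes were. An unadjusted p under 0.05 was found for 4 of the 10 members and for 2026 of the 7500 genes tested. DLA-DMB was 9.17 ± 1.94 in PTCL (SD, n = 4) and 10.27 ± 0.39 in TZL (SD, n = 9), a difference of -1.09 (95% interval -2.11 to -0.076, limma adjusted p = 0.150). DLA-DOA leaned the other way, at 10.63 ± 0.42 in PTCL and 9.31 ± 1.17 in TZL (1.33, interval 0.239 to 2.41, limma adjusted p = 0.0978). A single dog decided the DM calls, since without PTCL replicate 4, which had the highest B-cell and the lowest T-cell sum of its subtype, both passed, DLA-DMA at -1.77 (adjusted p = 0.0187) and DLA-DMB at -1.72 (adjusted p = 0.0177).

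DLBCL against MZL compares high with low grade in the B lineage. No gene at all was called in limma (0% of 7500 at an adjusted p under 0.05, and 977 at an unadjusted p under 0.05), members included. All 10 member differences were negative, with a median of -0.70 against -0.030 over all genes, and 3 had an unadjusted p under 0.05. CIITA differed most, at 3.94 ± 0.83 in DLBCL (SD, n = 10) and 6.01 ± 1.21 in MZL (SD, n = 5), a difference of -2.07 with a 95% interval of -3.24 to -0.91 (limma unadjusted p = 0.000994, adjusted p = 0.114). With DLBCL values under the minimum set to it, CIITA was 3.28-fold lower. The adjusted p passed without DLBCL replicate 3 (0.047) and with array weights (0.0123), while with the 3' to 5' control differences as covariates the difference was -1.45 (adjusted p = 0.818). RFX5 (-0.75, interval -1.34 to -0.16) and DLA-DQA1 (-0.66, interval -1.25 to -0.063) were the other members past the unadjusted threshold. The invariant chain and the DR alpha chain were not called, with CD74 at 13.35 ± 0.37 in DLBCL and 13.71 ± 0.41 in MZL (interval of the difference -0.95 to 0.24) and DLA-DRA at 13.07 ± 0.13 in DLBCL and 13.27 ± 0.17 in MZL (interval -0.61 to 0.21).

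The steps of grade were compared between lineages. No member was called in (PTCL minus TZL) minus (DLBCL minus MZL), a contrast that called 1.96% of all genes. DLA-DOA alone of the members had an unadjusted p under 0.05 (2.11 ± 0.72, SE, limma adjusted p = 0.138), as did 1054 of the 7500 genes tested. BL against DLBCL called no member at any of the thresholds used, adjusted or unadjusted, with 0.0267% of all genes called and 2 BL dogs. DLBCL against PTCL called no member either, against 20.9% of all genes. An unadjusted p under 0.05 was found there for 1 of the 10 members and for 2532 of the 7500 genes tested. Without PTCL replicate 4, 1 member was called.

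B against T set 17 dogs of each phenotype side by side. Of the 10 members, 4 were higher in B, against 24.2% of all genes that were higher in B and 46.5% called in either direction, and none was lower, against 22.3% of all genes. DLA-DMB was 2.28-fold higher in B (limma adjusted p = 0.0288), DLA-DOA 2.22-fold higher (adjusted p = 0.00655), IFI30 1.83-fold higher (adjusted p = 0.037) and CTSS 1.47-fold higher (adjusted p = 0.0235). Only DLA-DOA was called (0.95, adjusted p = 0.0169) when the 4 LBT dogs were left out, a choice made after seeing their low values. Array weights also left 1 call, and equal weight per subtype gave 8. The IFI30 call was lost in 16 of 50 alternatives, with an adjusted p between 0.0501 and 0.0629 where it was lost by leaving out LBT replicate 1 or 2, MZL replicate 1, 2 or 4, DLBCL replicate 2 or 3, or TZL replicate 1, 5 or 8. DLA-DMB narrowly missed without LBT replicate 3 (adjusted p = 0.0504). CD74 averaged 13.44 ± 0.39 in B dogs, against 12.90 ± 1.14 in T dogs (SD over 17 dogs each, limma adjusted p = 0.114), and CIITA averaged 4.45 ± 1.40 in B dogs, against 4.62 ± 1.54 in T dogs (adjusted p = 0.804).

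MZL against TZL compares the low-grade subtypes of both lineages. Of the 10 members, 2 were called, both higher in MZL, against 15.2% of all genes that were higher in MZL and 27.5% called in all. DLA-DOA was 3.96-fold higher, at 11.29 ± 0.46 in MZL (SD, n = 5) and 9.31 ± 1.17 in TZL (SD, n = 9, limma adjusted p = 0.00326). IFI30 was 2.52-fold higher (limma adjusted p = 0.0463), but fell short when any of MZL replicates 1, 2, 4 and 5, TZL replicates 1, 2, 4 to 8, DLBCL replicates 6, 10 and 11 or PTCL replicate 1 was left out (adjusted p between 0.0502 and 0.117). RFX5 (0.74, adjusted p = 0.0593) passed instead without MZL replicate 5, TZL replicate 4 or 9, DLBCL replicate 3 or PTCL replicate 3. The chains and the invariant chain were not called, and the intervals of the log2 difference were -0.49 to 0.73 for CD74, -0.32 to 0.52 for DLA-DRA and -0.47 to 0.74 for DLA-DQA1. The B-cell sums did not overlap between MZL and TZL, and the 3 TZL dogs with the lowest sums, replicates 8, 5 and 1, were also the 3 lowest in DLA-DOA, at 7.73, 7.40 and 8.60. These 3 dogs were also the lowest of TZL in the macrophage and dendritic cell sum, at 2564, 305 and 1916. The part of B cells, or of macrophages and dendritic cells, in the DLA-DOA difference was not tested.

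Other genes of the pathway were counted from lists. Of 41 listed genes, 35 had a probe set and 33 were tested, and 21 differed among subtypes by the F test, a share near the 56.8% of all genes. In LBT against TZL 4 rose and 10 fell, against 17.8% and 12.4% of all genes, with a median difference of -0.33 over the 33. Of the 3 further class II chains tested, 2 fell and DLA-DOB was not called. DLA-DQB1 fell by 2.46 ± 0.39 on the log2 scale (SE, limma adjusted p = 1.89e-05) and HLA-DRB1, as the annotation spells the DR beta chain, by 1.58 ± 0.28 (SE, adjusted p = 7.44e-05).

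Of the 10 tested inducers and repressors of CIITA, 5 fell and none rose in LBT against TZL, against 12.4% and 17.8% of all genes. They include PRDM1, a repressor of CIITA, which fell by 2.81 (limma adjusted p = 0.00243) and is named after its values were seen. Its mean was 2.31 in LBT and 5.12 in TZL. All 4 LBT dogs were under the minimum in PRDM1, so the size of its fall is uncertain. PRDM1 is also on a list of plasma cell markers, of which all 3 genes tested fell in LBT against TZL (limma). IRF1, a transcription factor that induces CIITA after interferon, had a mean of 5.95 in LBT, 6.63 in PTCL and 9.21 in TZL, and IFNGR1, a chain of the interferon gamma receptor, 7.01 in LBT, 7.84 in PTCL and 9.49 in TZL. IRF1 fell by 3.27 and IFNGR1 by 2.49 in LBT against TZL (limma adjusted p = 2.26e-05 and 6.36e-06). Both also fell in PTCL against TZL (by 2.58 and by 1.66, limma adjusted p = 0.00104 and 0.00223) and in MZL against TZL (by 2.45 and by 2.16, adjusted p = 0.000363 and 1.83e-05). EBF1, a B-cell transcription factor, was 3.54 in LBT and 5.49 in TZL without passing (adjusted p = 0.0734).

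The costimulatory ligand CD80 was highest in TZL. It had 4.41 ± 1.25 in LBT (SD, n = 4) and 6.66 ± 1.09 in PTCL (SD, n = 4), against 8.96 ± 0.55 in TZL (SD, n = 9). Its log2 difference was -4.55 in LBT against TZL (limma adjusted p = 4.47e-07), -2.31 in PTCL against TZL (adjusted p = 0.00509) and -4.46 in MZL against TZL (adjusted p = 2.15e-07). CD40, the receptor on antigen-presenting cells, was 2.94 higher on the log2 scale in MZL than in TZL (adjusted p = 0.00339).

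Among the 6 tested endosomal proteases other than CTSS, 2 rose and none fell in LBT against TZL, against 17.8% and 12.4% of all genes. Both are named after their values were seen. CTSD, an aspartic protease, averaged 10.33 ± 0.68 in LBT and 7.63 ± 1.02 in TZL (2.70, limma adjusted p = 0.000238), and CTSH, an aminopeptidase, 11.22 ± 0.85 in LBT and 9.48 ± 1.80 in TZL (1.74, adjusted p = 0.0313). Both also rose in PTCL against TZL, by 1.74 and 1.99 (adjusted p = 0.0241 and 0.0285). In DLBCL against MZL none of the 33 genes was called in limma, and 5 had an unadjusted p under 0.05, as did 977 of all 7500 genes.

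CIITA was set against the other members within the 2 subtypes of at least 6 dogs, which gave 18 relations. A single relation held after adjustment, CIITA with DLA-DMA in DLBCL (n = 10, Pearson r = 0.722, permutation p = 0.00208, adjusted p = 0.0374; Spearman rho = 0.903, permutation p = 0.00108, adjusted p = 0.0194). It was 0.526 without the 2 dogs farthest from the median of CIITA, and 0.681 (permutation, adjusted p = 0.100) without the 2 DLBCL dogs of the arrays that stood apart. In TZL the same pair had r = 0.681 (n = 9, exact permutation p = 0.0411, adjusted p = 0.123) and rho = 0.800 (exact permutation p = 0.0138, adjusted p = 0.083). Most DLBCL values of CIITA lie under the minimum, where the array resolves levels poorly.

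Over the 34 dogs, DLA-DOB, the partner of DLA-DOA in the DO molecule, had the pattern most like CIITA among 7499 genes (Pearson r = 0.85, rank 1). Dim values enter this ranking. DLA-DOB was under the minimum in 3 LBT, 2 PTCL, 1 TZL, 2 DLBCL and 1 BL dogs, and only 20 of 34 dogs brought CIITA to it. DLA-DMA ranked 5 and HLA-DRB1 ranked 7, while CD74 ranked 137. The most alike genes outside the lists were FBXO6 (0.82), RBM38 (0.81), RAB4B (0.80), NR1H2 (0.78) and GRK2 (0.77). After each subtype's mean was subtracted, DLA-DOB (0.85) and DLA-DMA (0.82) ranked 1 and 2, and FBXO6 (0.76), ZCCHC7 (0.74), RBM38 (0.73), UNC93B1 (0.73) and HVCN1 (0.72) were the most alike outside the lists. These are descriptions over the same 34 dogs, whose subtypes and marker sums differ.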

How the data were processed

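Each array came from the tumour tissue of 1 dog, except that 2 arrays of a single DLBCL dog were averaged and counted once. The authors deposited linear intensities, summarised and normalized between arrays by GCRMA, per the submitters' processing notes, which give no version. GCRMA makes arrays comparable and shrinks dim probe sets, so differences near the minimum are uncertain. Values below 1 were set to 1 before log2 was taken. Of 43035 probe sets, 29254 had 1 gene symbol, and the one with the highest mean represented each gene. Genes at log2 4 or more in at least 4 of 34 dogs were tested (7500). R 4.3.3 with limma 3.58.1 gave two-sided p-values adjusted by Benjamini-Hochberg over all genes, called under 0.05. The 6 subtypes shared 1 fit, and B against T was a fit of 2 means. Permutation tests of correlations used scipy 1.17.1, with 100000 resamples for 10 dogs. Steps were tested on simulated data. Where replicate numbers come from accession order, they pair no samples.

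The members and lists were chosen with earlier results of these data known. All members were named, up to 6 other pathway genes with the smallest F test p (CD80, IFNGR1, EBF1, IRF1, CD40 and DLA-DQB1), and the 5 genes most like CIITA on each scale. HLA-DRB1, CTSD, CTSH, PRDM1, ITGAX and DLA-DOB were named after their values were seen. No sequence was used here. Alternatives were other filters, scalings, variance models, probe sets and covariates, leaving out dogs or the 6 arrays, and B against T without LBT, added after seeing the data.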

Additional observations from a re-analysis of the deposited data

Results flagged for a closer look

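In 6 of 50 combinations of member and subtype with 4 to 10 dogs, 1 dog lay far from the others by Dixon's criterion, which chance meets in about 1 in 20. Toward low values these were CD74 in MZL replicate 1 at 12.99, DLA-DMA in DLBCL replicate 6 at 8.05, and DLA-DMA at 9.51 and DLA-DOA at 10.48 in MZL replicate 2. Toward high values these were DLA-DQA1 in LBT replicate 4 at 10.80 and CTSS in PTCL replicate 4 at 12.36. LBT replicate 4 remained below every TZL dog for DLA-DQA1. DLBCL replicate 6 is the dog with 2 averaged arrays.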

How the results depend on the processing

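No paired analysis was possible because the replicate numbers follow accession order and mark no shared animal or batch. LBT against TZL called 7 to 8 members under all 48 alternatives, leaving out any dog included, and the F test 8 to 10. Members called in B against T were 1 with array weights, 8 with equal weight per subtype and 1 without LBT (3 to 4 leaving out each dog). DLBCL against MZL called 1 with array weights and 0 to 1 leaving out each dog, PTCL against TZL 0 to 2, and DLBCL against PTCL 0 to 1. LBT against PTCL called 0 with covariates, 0 with the compared subtypes only and 0 to 7 leaving out each dog. MZL against TZL called 1 with no filter, the mean of probe sets, values set to the minimum, sex, breed and age, the array set as a block or left out, or RNA quality covariates, and 1 to 3 leaving out each dog. BL against DLBCL and the grade steps called 0 throughout.

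Genes called in DLBCL against MZL, none in the report, were 17 with the stricter filter, 378 with array weights, 13 with the mean of probe sets, 39 with values set to the minimum, 24 with the first array of the repeated case, 19 without the array set and 0 to 72 leaving out each dog. PTCL against TZL had 547 without the array set (589 to 1086 leaving out each dog). LBT against PTCL had 33 with the stricter filter, 96 with values set to the minimum, 4 with covariates, 82 with the block, 0 with the compared subtypes only and 11 to 173 leaving out each dog. DLBCL against PTCL had 847 with the compared subtypes only. BL against DLBCL, with 2 calls, had 6 with no filter or RNA covariates, 1 with the stricter filter or quantile normalization, 12 with array weights, 0 with the mean of probe sets or the compared subtypes only, 11 with values set to the minimum, 4 without the array set and 0 to 12 leaving out each dog. The grade steps had 45 without the array set and 61 to 280 leaving out each dog. The count of correlations was 0 without the array set.

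The cause of the reversals was not tested. In B against T, CIITA was 0.036 with the mean of probe sets, 0.62 with RNA covariates and 0.047 with equal weight, CD74 -0.14 in the third probe set, DLA-DQA1 -0.088 with array weights and -0.14 without LBT, and RFX5 -0.0086 with array weights. DLA-DMB in DLBCL against MZL was 0.022 with RNA covariates, and CTSS there ran from -0.18 to 0.0011 leaving out each dog. In PTCL against TZL, RFX5 was -0.086 with array weights, -0.00047 with the mean of probe sets, -0.042 without the array set, -0.077 in the other probe set and -0.11 to 0.33 leaving out each dog, CTSS 0.13 with the mean of probe sets, 0.056 with covariates, 0.27 in the other probe set and -0.23 to 0.085 leaving out each dog, and CIITA -1.46 to 0.070. In MZL against TZL, CD74 was -0.20 with the mean of probe sets and -0.92 in the third probe set. DLA-DOA in LBT against TZL ran from -1.19 to 0.20 and CIITA in DLBCL against PTCL from -1.50 to 0.031 leaving out each dog. CIITA with RFX5 in DLBCL had r = -0.056 without the 2 farthest dogs. Dim signal limits CIITA, which 20 of 34 dogs brought to the minimum.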

Other observations

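The NBNT dog, which belongs to no group compared here, had a CIITA level of 6.45, CD74 of 13.70, DLA-DRA of 13.39, DLA-DQA1 of 11.88, DLA-DMA of 10.37 and DLA-DMB of 10.65. DLA-DOA was 10.80, RFX5 10.21, CTSS 12.04 and IFI30 11.50 in this dog. Its summed intensity was 3157 over the B-cell list, 17190 over the T-cell list and 4485 over the macrophage and dendritic cell list. The tumour was labelled low grade.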
